A study of Mus musculus with 6 samples.

Results

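The 9 genes described here mark cells of the B lineage: Vpreb1, Igll1 and Vpreb3, Cd79a, Cd79b, Pax5, Ebf1 and Blnk, and Ms4a1. They were taken by symbol from the 54532 genes of the deposited table, and all 9 were found. Vpreb1, Igll1 and Vpreb3 are precursor genes, Ms4a1 is a gene of late precursors and mature B cells, and the other 5 are used through most stages of B cell development. Bone marrow (BM) RNA of C57BL/6 mice was sequenced at day 100 after transplantation, in 3 WT-labelled and 3 KO-labelled libraries (WT 1 to WT 3 and KO 1 to KO 3), to ask what loss of Phf6 does in the presence of JAK3 M511I. In the methods of the study, WT donors were Phf6 fl/y and KO donors Vav1-Cre;Phf6 fl/y, in which Cre is driven by a promoter of the hematopoietic lineage. Donor cells of both groups were lineage-negative BM cells of male mice that received JAK3 M511I and GFP from a retrovirus and were given to irradiated male hosts, so every library carries the activated kinase and may hold cells of the host. The genotype labels name Phf6, Phf7 and Phf8 in replicates 1, 2 and 3 of each group, and were read as Phf6 from the design text of the series. The labels do not say whether GFP+ cells were sorted or whether each library came from its own animal, and p-values measure only the spread between these libraries.

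B cells arise in the BM in ordered steps. Ebf1 and Pax5 are the transcription factors that commit progenitors to the lineage. In the precursor, the immunoglobulin heavy chain is paired with a surrogate light chain made of the products of Vpreb1 and Igll1, and the complex signals through the Cd79a and Cd79b chains and the adaptor Blnk. Surrogate light chain genes are then shut off, and maturing cells gain Ms4a1, which encodes CD20. In bulk RNA, fewer B cells and less RNA per B cell cannot be told apart. The study described the cells it profiled as T-ALL cells. In primary hosts it also reported a higher percentage of B cells among GFP+ BM cells with KO than with WT donors. That was a share of cells at a later time after transplantation, not RNA. How it relates to the levels below was not tested.

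The starts of the members were searched for motifs of factors known in the B lineage, over 250 bases before the RefSeq start and on both strands (RefSeq, GRCm38.p6). The EBF core CCCNNGGG was present in 11.8% of 32851 promoters, the E-box CAGGTG in 17.2% and the octamer ATGCAAAT in 1.60%. Of the 9 members, 7 had a promoter sequence, and Cd79b and Ms4a1 are named only. The upstream sequences of Cd79a, Vpreb3 and Igll1 are shown because the order of WT 1 and WT 3 against the KO-labelled libraries differed between these genes. For Igll1 that order rests on 0 to 4 reads per library. Capitals mark a motif or its reverse complement, and each sequence reads 5′ to 3′ on the strand of its gene.
Cd79a, chr7:24897247-24897380, plus strand, with the E-box: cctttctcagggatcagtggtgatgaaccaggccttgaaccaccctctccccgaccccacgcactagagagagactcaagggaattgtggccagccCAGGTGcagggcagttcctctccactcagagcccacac
Vpreb3, chr10:75948050-75948299, plus strand, with the octamer: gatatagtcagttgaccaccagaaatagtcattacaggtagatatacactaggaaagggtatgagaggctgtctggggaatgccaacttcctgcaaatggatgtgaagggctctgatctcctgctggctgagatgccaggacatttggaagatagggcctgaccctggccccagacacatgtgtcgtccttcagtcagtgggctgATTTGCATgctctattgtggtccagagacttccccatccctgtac
Igll1, chr16:16863986-16864235, minus strand, with the EBF core and the E-box: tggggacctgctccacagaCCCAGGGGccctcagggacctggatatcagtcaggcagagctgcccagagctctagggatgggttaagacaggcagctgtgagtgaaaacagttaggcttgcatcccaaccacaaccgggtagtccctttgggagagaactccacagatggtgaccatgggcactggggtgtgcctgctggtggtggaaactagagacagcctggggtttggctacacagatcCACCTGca
Only the part of the Cd79a window outside annotated exons is given. The octamer of Vpreb3 began 45 bases before the start, and Blnk had an octamer 130 bases before its start. The Blnk window lies wholly in annotated exons of Blnk, so that only the short site is shown.
Vpreb3, chr10:75948247-75948270, plus strand: gtgggctgATTTGCATgctctatt
Blnk, chr19:40994336-40994359, minus strand: tggaagggATTTGCATgcccaata
Blnk and Vpreb1 also held 1 E-box each, both in annotated exons, and the windows of Pax5 and Ebf1 held none of the 3 motifs. No measure of factor binding was used here, and a match is a description of the letters in the window.

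Recovered reads came to between 13015823 and 18235095 per library. Before any comparison, WT 2 stood apart from the other WT-labelled libraries: its Pearson correlation with them over genes was 0.786 and 0.754, against 0.953 between WT 1 and WT 3 and 0.972 to 0.981 among the KO-labelled libraries. Genes under 1000 bases took 17.1% of the reads of WT 2 and 3.11% to 5.01% elsewhere, and genes of 8000 bases or more took 6.74% against 22.9% to 26.5%. The comparisons of the members, and the counts of the gene lists, are therefore given with and without WT 2. Phf6 had an FPKM of 3.67 to 8.02 in the WT-labelled and 5.11 to 6.73 in the KO-labelled libraries, and because Cre removes only the floxed part of the gene, this value does not check the labels.

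Outside WT 2 the B lineage genes were low, with none above 9.39 FPKM, and the order of the groups was not the same for all of them. All 9 had their highest value in WT 2, as did 29.7% of the 16653 genes with at least 10 reads in at least 2 libraries. When WT 2 was set aside, Cd79a, Cd79b, Pax5, Ebf1 and Ms4a1 were lower in every KO-labelled library than in WT 1 and WT 3, whereas Vpreb1, Igll1, Vpreb3 and Blnk were higher. For Vpreb1 and Igll1 this order rests on 0 or 1 read in WT 1 and WT 3 against 1 to 5 reads in each KO-labelled library. With all 6 libraries, the groups did not overlap for 5 of 9 members, all of them lower in KO, as 25.4% of those genes were (25.5% were higher), and overlapped for the other 4. Without WT 2, none of the 9 overlapped, with 5 lower in KO (37.3% of genes) and 4 higher (35.6%). Vpreb1 and Igll1 reached 10 reads in WT 2 alone, so they are not among the genes behind any of these shares. Groups this small separate often in these data, so the counts say little about the members, and the values are given gene by gene.

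**Figure D1:**
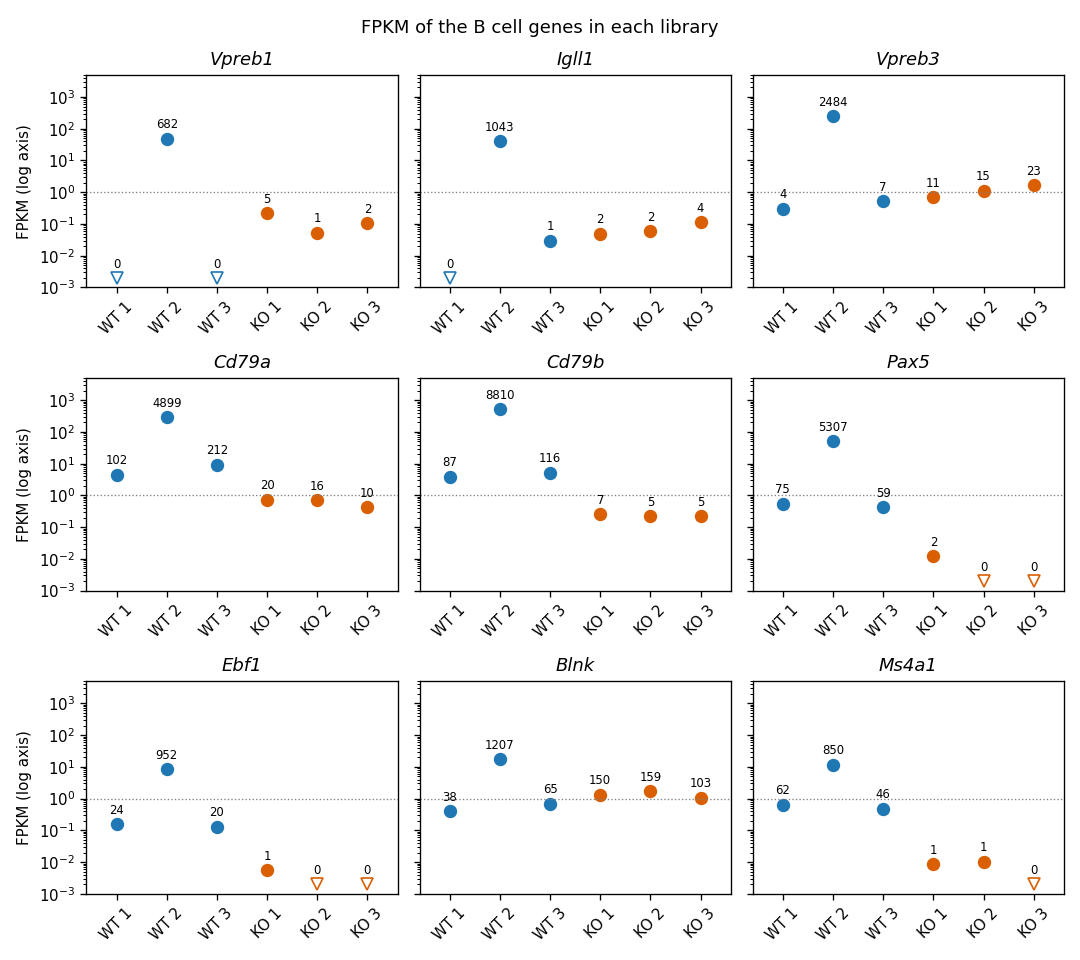
FPKM of each of the 9 genes (log axis) in the 6 libraries, WT-labelled in blue and KO-labelled in orange, with the recovered reads above each point. Open triangles stand for 0 reads and the dotted line for an FPKM of 1. WT 2 is the highest point in all 9 panels, and Pax5, Ebf1 and Ms4a1 had 0 to 2 reads in each KO-labelled library.

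The surrogate light chain genes were read in WT 2, hardly in WT 1 and WT 3, and in a few reads in each KO-labelled library. Vpreb1 (ENSMUSG00000059305, GRCm38, chr16:16868403-16870843, minus strand) reached 0, 48.4 and 0 FPKM in WT 1 to WT 3, against 0.224, 0.0530 and 0.104 in KO 1 to KO 3. These were 0, 682 and 0 reads in the WT-labelled and 5, 1 and 2 reads in the KO-labelled libraries. Against a floor of 3 reads per library in WT 1 and WT 3, WT 2 was at least 299-fold higher. Vpreb1 is uncertain because its near-identical copy Vpreb2 had 172 reads in WT 2 and 0 in the other 5 libraries, and because it shares 108 bases with Top3b on the opposite strand, which had 825 to 1574 reads in every library.

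Igll1, which encodes the lambda5 chain of the surrogate light chain, lies 4417 bases from Vpreb1 (ENSMUSG00000075370, chr16:16860671-16863985, minus strand). Its FPKM was 0, 41.0 and 0.0298 in WT 1 to WT 3, against 0.0496, 0.0587 and 0.115 in the KO-labelled libraries. The reads were 0, 1043 and 1 in WT and 2, 2 and 4 in KO. The 8 reads of the KO-labelled libraries against 1 read in WT 1 and WT 3 gave a ratio of 4.90 at the authors' library sizes (95% exact interval 0.657 to 218, counting error only), which does not separate the groups.

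Vpreb3 encodes a protein that associates with immunoglobulin chains inside B cells and is, unlike Vpreb1, no part of the surrogate light chain at the surface. Its FPKM (ENSMUSG00000000903, chr10:75943057-75949657, plus strand) was 0.302, 246 and 0.526 in WT 1 to WT 3, against 0.687, 1.11 and 1.66 in KO 1 to KO 3. WT 2 was 595-fold above the mean of WT 1 and WT 3, and the KO-labelled libraries lay between. The means were 82.3 ± 142 (SD, n = 3) in WT and 1.15 ± 0.489 (SD, n = 3) in KO. On the log2(FPKM + 1) scale, the fold change of KO against WT was -1.90 ± 1.96 (SE, limma, adjusted p = 0.531), and without WT 2 it was 0.59 ± 0.24 (SE, limma, adjusted p = 0.0825). Neither passed the threshold of 0.05, and the direction turned with WT 2. Read counts of 49 in KO and 11 in WT 1 and WT 3 gave a ratio of 2.73 (95% exact interval 1.40 to 5.82, counting error only). The interval leaves out the spread between libraries, so it does not stand in for the limma tests.

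The receptor chains Cd79a and Cd79b were lower in every KO-labelled library than in any WT-labelled library, and the difference passed the test without WT 2 but not with all libraries. Both genes met the filter on low values only through the WT-labelled libraries, WT 2 included, so passing it already favoured a difference. Cd79a (ENSMUSG00000003379, chr7:24897381-24902197, plus strand) reached 4.54, 286 and 9.39 FPKM in WT 1 to WT 3, against 0.737, 0.697 and 0.426 in KO 1 to KO 3. Cd79b (ENSMUSG00000040592, chr11:106311341-106314762, minus strand) had 3.94, 524 and 5.23 in WT, and 0.263, 0.222 and 0.217 in KO. WT 2 exceeded the mean of WT 1 and WT 3 by 41.1-fold for Cd79a and 114-fold for Cd79b.

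With all libraries, the log2 fold change of Cd79a was -3.98 ± 1.40 (SE, limma, adjusted p = 0.0845), and that of Cd79b was -4.36 ± 1.73 (SE, limma, adjusted p = 0.118). Of the 4 members with 1 FPKM or more in 3 or more libraries, the only ones tested, 0 passed the threshold in either direction, against 13.3% of all 13393 genes tested lower and 13.1% higher in KO. At an unadjusted p under 0.05 the count was 2, Cd79a and Cd79b, against 37.5% of all genes in either direction, and voom on the recovered reads of the same genes also called 0. Without WT 2, Cd79a changed by -2.23 ± 0.29 (SE, limma, adjusted p = 0.00201) and Cd79b by -2.17 ± 0.17 (SE, limma, adjusted p = 0.000339). In that comparison 25.3% of all genes were called lower and 26.8% higher. A fit without WT 2 and without the filter, added after the values were seen, tested all 9 members. It called Cd79a (limma, adjusted p = 0.0110), Cd79b (0.00289), Pax5, Ebf1 and Ms4a1 lower and no member higher, against 15.9% and 13.1% of 27526 genes. For Cd79a, pooled reads of 314 and 46 gave a ratio of WT 1 and WT 3 to KO of 11.1 (95% exact interval 8.15 to 15.5). For Cd79b, 203 and 17 reads gave 19.5 (11.9 to 34.1). These intervals cover counting error only.

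The transcription factors Pax5 and Ebf1 had 0 to 2 reads in each KO-labelled library. Pax5 (ENSMUSG00000014030, chr4:44524757-44710487, minus strand) reached 0.549, 51.0 and 0.430 FPKM in WT 1 to WT 3, against 0.0121, 0 and 0 in KO 1 to KO 3. Its reads were 75, 5307 and 59 in WT, and 2, 0 and 0 in KO. All 3 WT-labelled libraries lay above all 3 KO-labelled ones. The 134 reads of WT 1 and WT 3 against 2 gave a ratio of 109 (95% exact interval 29.7 to 912, counting error only).

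Ebf1 (ENSMUSG00000057098, chr11:44617317-45008091, plus strand) reached 0.159, 8.30 and 0.132 FPKM in WT 1 to WT 3, against 0.00550, 0 and 0 in KO. The reads were 24, 952 and 20 in WT, and 1, 0 and 0 in KO. The ratio of WT 1 and WT 3 to KO was 71.8 (95% exact interval 12.2 to 2899, counting error only), an interval so wide because it rests on 1 read. Both factors had an FPKM over 1 only in WT 2 and were not in the main test.

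Blnk, the adaptor that links Syk to downstream signalling after receptor engagement and that macrophages and plasmacytoid dendritic cells also use, went the other way. Its FPKM (ENSMUSG00000061132, chr19:40928927-40994535, minus strand) was 0.411, 17.1 and 0.700 in WT 1 to WT 3, against 1.34, 1.69 and 1.07 in KO 1 to KO 3. The KO-labelled libraries lay above WT 1 and WT 3 and below WT 2. The log2 fold change was -0.58 ± 0.95 with all libraries (SE, limma, adjusted p = 0.702), and without WT 2 it was 0.60 ± 0.19 (SE, limma, adjusted p = 0.0405). Rescaling to TPM turned the value with all libraries to 0.27. That stayed below the median of all genes tested, which rescaling moved from 0.086 to 0.86. Without WT 2 and without the filter, Blnk did not pass (limma, adjusted p = 0.0813). The 412 reads in KO against 103 in WT 1 and WT 3 gave a ratio of 2.45 (95% exact interval 1.97 to 3.07, counting error only, without the spread between libraries). Beside Blnk, the summed FPKM of 10 plasmacytoid dendritic cell genes was 65.0, 769 and 65.1 in WT 1 to WT 3, against 546 to 795 in KO, most of it in WT 2 and KO from Ly6d (428 in WT 2 and 418 to 568 in KO), which lymphoid precursors share. Siglech, a defining marker of those cells, had 20, 634 and 2 reads in WT and 0 in each KO-labelled library. Of 6 plasmacytoid dendritic cell genes tested, 1 was higher and 0 lower in KO by limma, and of 8 genes of monocytes and macrophages tested, 6 were lower and 0 higher. The 1 higher gene met the filter only through the KO-labelled libraries, and 2 of the 8 only through the WT-labelled ones. The part of other cell types in the level of Blnk was not tested.

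Ms4a1 (ENSMUSG00000024673, chr19:11249675-11266241, minus strand), the mature gene, reached 0.649, 11.7 and 0.480 FPKM in WT 1 to WT 3, against 0.00868, 0.0103 and 0 in KO. The reads were 62, 850 and 46 in WT and 1, 1 and 0 in KO. No KO-labelled library overlapped with WT. From 108 and 2 reads, the ratio of WT 1 and WT 3 to KO was 88.1 (95% exact interval 23.8 to 737, counting error only). WT 2 exceeded the mean of WT 1 and WT 3 by 20.7-fold, the smallest such ratio among the members.

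To reach the members below the FPKM limit, voom was run on the recovered reads of genes with at least 10 reads in at least 2 libraries, a test chosen after the values were seen. Cd79b, Pax5, Ebf1 and Ms4a1 entered it only through the WT-labelled libraries. With all 6 libraries it called Ms4a1 lower in KO (limma voom, adjusted p = 0.0301) and no other member, against 12.4% of genes called lower and 15.4% higher. Without WT 2, Cd79a, Cd79b, Pax5, Ebf1 and Ms4a1 were lower, with adjusted p between 0.000464 and 0.00247, and Blnk was higher (adjusted p = 0.0142), against 24.0% and 31.2% of genes. Vpreb3 did not pass (adjusted p = 0.0803), and Vpreb1 and Igll1 had too few reads to be tested. The fitted fold changes of Pax5, Ebf1 and Ms4a1 lean on the prior count that voom adds to 0 to 2 reads, and the read ratios above give their size.

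**Figure D2:**
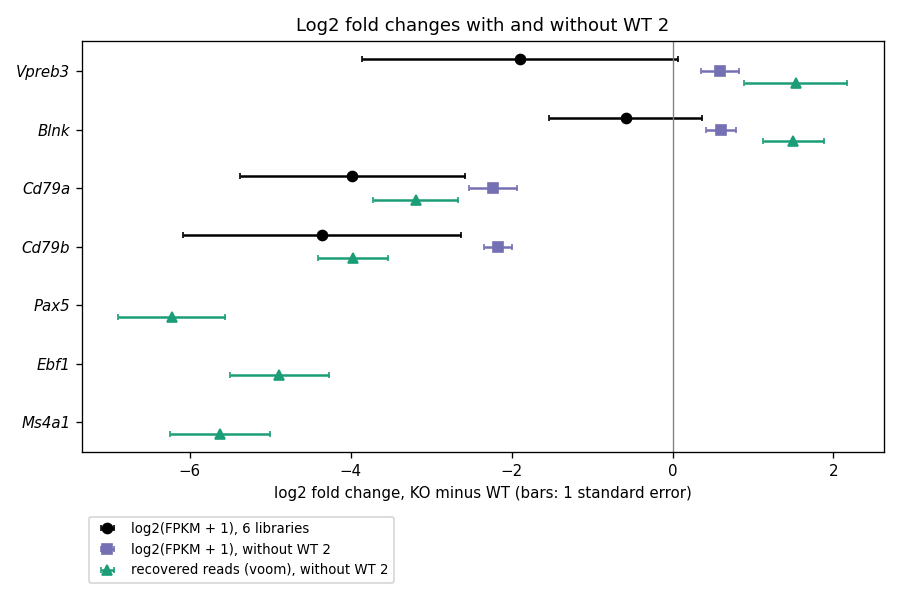
Log2 fold changes of KO against WT with 1 standard error, for the 7 genes tested in at least 1 of the fits shown. These are limma on log2(FPKM + 1) with 6 libraries (black circles) and without WT 2 (purple squares), and voom without WT 2 (green triangles). Vpreb3 moved from -1.90 to 0.59 and Blnk from -0.58 to 0.60 when WT 2 was left out, and Cd79a and Cd79b stayed below 0; the voom values of Pax5, Ebf1 and Ms4a1 depend on the prior count.

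To contrast precursor and mature genes within each library, the reads of each member were set beside those of Cd79a. Cd79a is itself a member and had 102, 4899 and 212 reads in WT, but only 20, 16 and 10 in KO. A gene that falls less than Cd79a therefore gains share, so the shares depend on the fall of Cd79a. Vpreb3 made up 3.77% of its reads plus those of Cd79a in WT 1 and 3.20% in WT 3, 33.6% in WT 2, and 35.5%, 48.4% and 69.7% in KO 1 to KO 3. For Igll1 the share was 0% in WT 1, where the exact upper limit was 3.55%, 17.6% in WT 2, 0.469% in WT 3, and 9.09%, 11.1% and 28.6% in KO. For Vpreb1 it was 0% in WT 1 and WT 3 (upper limits 3.55% and 1.72%), 12.2% in WT 2, and 20.0%, 5.88% and 16.7% in KO, where the intervals spanned from 0.149% to 48.4%. By this measure the 3 precursor genes were at a higher share in WT 2 and in KO than in WT 1 and WT 3. The interval of WT 2 overlapped with that of each KO-labelled library, except for Vpreb3 in KO 3 (51.3% to 84.4%), and some intervals of Vpreb1 and Igll1 in KO also reached those of WT 1 and WT 3.

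Ms4a1 ran in the other direction. Its share was 37.8% in WT 1, 14.8% in WT 2 and 17.8% in WT 3, and 4.76%, 5.88% and 0% in KO, where the upper limits were between 23.8% and 30.8%, so no WT-labelled library was separated from every KO-labelled one at this depth. Blnk was at 27.1%, 19.8% and 23.5% in WT and at 88.2%, 90.9% and 91.2% in KO, with no overlap of the intervals between the groups. Pax5 was at 42.4%, 52.0% and 21.8% in WT, and at 9.09%, 0% and 0% in KO.

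The mean log2(FPKM + 1) of Vpreb1, Igll1 and Vpreb3 minus that of Ms4a1 was -0.59, 2.66 and -0.35 in WT 1 to WT 3, against 0.36, 0.40 and 0.57 in KO 1 to KO 3. The mean was 0.57 ± 1.81 (SD, n = 3) in WT and 0.44 ± 0.11 (SD, n = 3) in KO, a difference far within the spread of WT, whose sign turned with the pseudocount and the scaling. Without WT 2 the WT mean was -0.47 ± 0.17 (SD, n = 2), below all 3 KO-labelled libraries. In KO the score rested mostly on Vpreb3, at 0.755, 1.08 and 1.41 in KO 1 to KO 3. Vpreb1 was at 0.0745 to 0.291 and Igll1 at 0.0699 to 0.157 there, and Ms4a1 had 0 or 1 read per library. No test was made of this score.

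**Figure D3:**
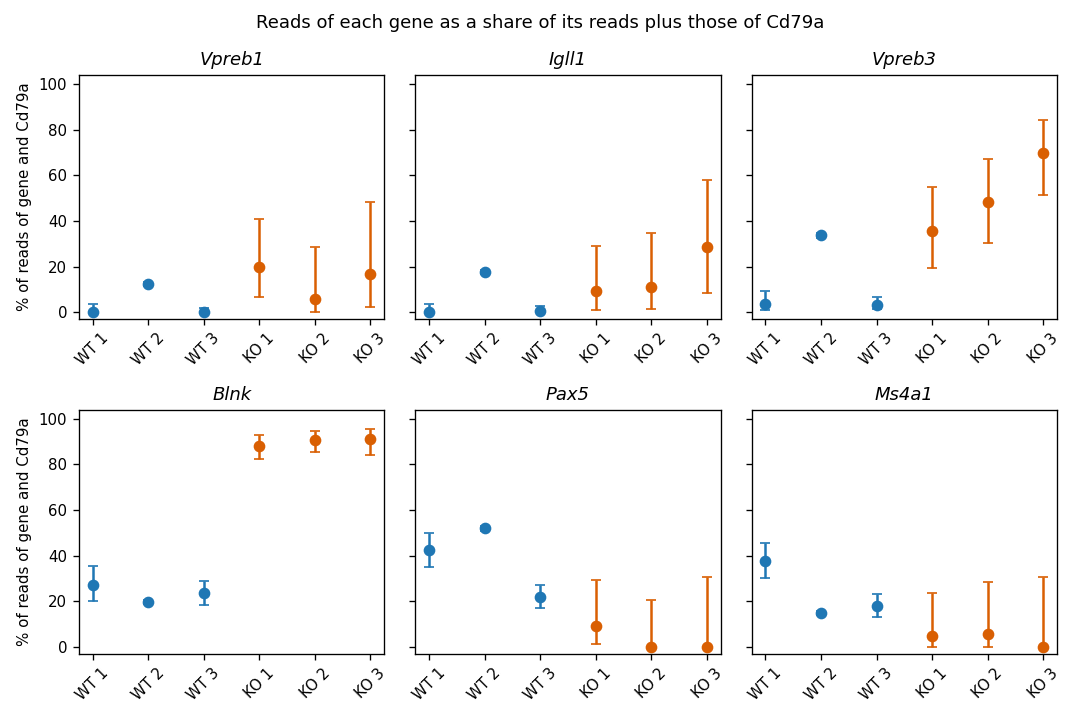
Reads of 6 genes as a percentage of their own reads plus those of Cd79a in each library, with 95% Clopper-Pearson intervals that cover counting error only. Cd79a had 20, 16 and 10 reads in KO 1 to KO 3. Vpreb1, Igll1 and Vpreb3 are near 0 in WT 1 and WT 3 and above that in WT 2 and KO, Blnk is at 88.2% to 91.2% in KO against 19.8% to 27.1% in WT, and Ms4a1 is lowest in KO.

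The gap between WT 2 and the other WT-labelled libraries was wide for short and for long members. On the log2(FPKM + 1) scale, Vpreb3 (859 bases) was 7.45 higher in WT 2, which 6 of 16653 genes reached, and Cd79b (1431 bases) was 6.56 higher, which 8 genes reached. Cd79a was 5.24 higher (19 genes) and Pax5, of 8853 bases, 5.13 higher (23 genes). The median over genes of 8000 bases or more was -0.70, and over genes of 1000 to 2500 bases 0.34. Ebf1, of 9756 bases, was 3.02 higher, and Ms4a1 was also 3.02 higher. Over the 6 libraries, the Pearson correlation of log2(FPKM + 1) between members ranged from 0.8191 to 0.9991, with WT 2 as the highest point of every member.

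**Figure D4:**
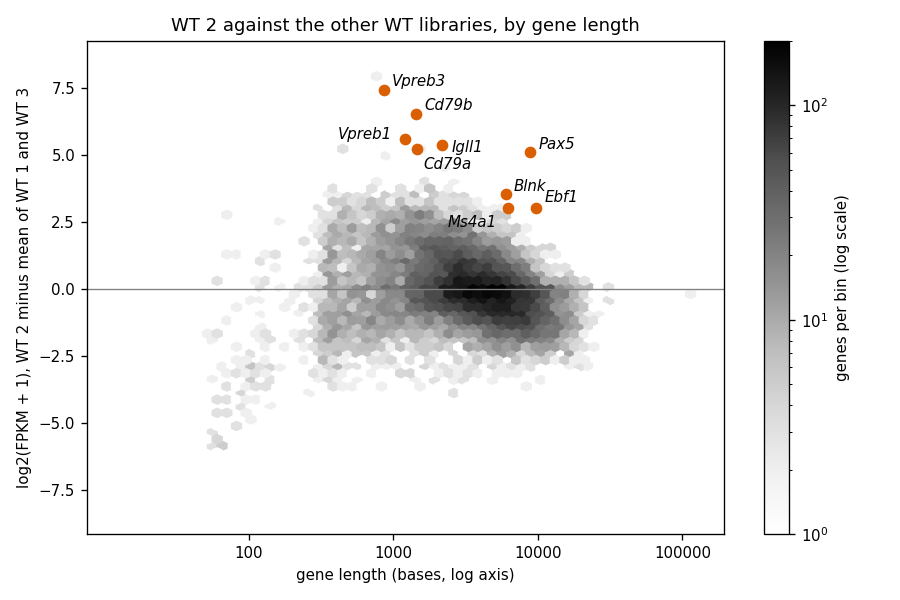
Log2(FPKM + 1) in WT 2 minus the mean of WT 1 and WT 3, against gene length (log axis), with the shade giving the number of the 16653 genes in each bin and orange points the 9 members. The members lie between 3.02 and 7.45, near or above the upper edge of the genes of their length, while the longest genes as a class lie below 0.

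Other genes of the B lineage were read from lists, each described beside all genes tested, whose median was 0.086 and of which 13.3% were called lower and 13.1% higher in KO (25.3% and 26.8% without WT 2). Of 14 other precursor B cell genes, 12 were tested, and 6 were higher and 3 lower in KO (limma), with a median of 1.77, and without WT 2 the counts were 7 and 3. The 4 with the smallest p-values were Rag1 and Rag2, which cut DNA for receptor rearrangement, Arpp21 and Sox4, and their log2 fold changes were 8.11, 3.04, 4.30 and 4.29. Rag1 had an FPKM of 0.0686, 1.71 and 0 in WT and 338 to 457 in KO. These 4 are among 9 of the 14 genes that T cell precursors also use. Arpp21 met the filter only through the KO-labelled libraries, and 2 of the 12 genes tested only through the WT-labelled ones. Vpreb2, the list's surrogate light chain gene, had no read in any KO-labelled library, and none of the 9 members had an FPKM above 1.69 there.

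Of 16 other mature B cell genes, 10 were tested, and 6 were lower and 0 higher in KO, with a median of -2.85. Cd22, an inhibitory coreceptor of B cells, had an FPKM of 3.21, 18.1 and 3.37 in WT and 0.0213, 0 and 0.0123 in KO (limma, log2 fold change -2.80, adjusted p = 0.0154). H2-Ob, which modulates antigen loading in B cells, changed by -3.30, Gpr183, a receptor that positions B cells, by -3.77, and Cd55, a complement regulator of many cells, by -3.94. Gpr183 (66.6 FPKM) and Cd55 (10.5 FPKM) were lower in WT 2 than in WT 1 and WT 3, unlike the 9 members. Without WT 2, 10 of 10 tested genes were lower, but 6 of the 10, Cd22, H2-Ob and Cd55 among them, met the filter only through the WT-labelled libraries. Cd40 and Fcmr had no read in KO.

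Genes that act below the receptor were mostly lower. Of 16 genes of B cell receptor signalling, 14 were tested, 8 were lower and 1 was higher in KO, with a median of -1.97, and 9 and 1 without WT 2. Of these 14 genes, 7 met the filter only through the WT-labelled libraries. Lyn, the kinase that phosphorylates the Cd79 chains, changed by -3.93 and the phospholipase Plcg2 by -4.13, while Prkcb was higher by 1.17. Myeloid cells also use Lyn and Plcg2. Of 15 B lineage transcription factors, 13 were tested, and 4 were lower and 0 higher (Spi1 -5.30, Pou2f2 -2.11, Bach2 -1.27 and Foxo1 -1.24). Without WT 2 the counts were 6 and 3, where the share of higher genes was near that of all genes. Spi1 and Pou2f2 met the filter only through the WT-labelled libraries.

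Several immunoglobulin constant and plasma cell genes were lower in KO with all 6 libraries in the test. Ighm, the constant gene of IgM, reached 696, 1378 and 1302 FPKM in WT 1 to WT 3, against 68.1, 32.1 and 14.7 in KO 1 to KO 3 (limma, log2 fold change -5.03, adjusted p = 0.00209). WT 2 lay close to WT 3 for Ighm. Of 6 constant genes tested, 3 were lower (Ighm, Igkc and Iglc2) and 0 higher, and 5 were lower without WT 2. The filter was met only through the WT-labelled libraries by 3 of the 6, Iglc2 among them. Of 8 plasma cell genes, 7 were tested, and 5 were lower and 0 higher, Jchain, which joins IgM and IgA units, by -5.90. Without WT 2 the counts of the plasma cell genes were again 5 and 0. Among the 7 plasma cell genes tested, 1 met the filter only through the WT-labelled libraries.

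Markers of other cells did not all go in the same direction. By limma with all libraries, all 10 neutrophil genes were lower in KO, with and without WT 2. Of 7 NK cell genes tested, 6 were lower and 1 higher, also without WT 2, although their summed FPKM was 250, 157 and 265 in WT and 570.3 to 619 in KO. The filter was met only through the WT-labelled libraries by 5 of these 7. Of 10 T cell genes, 2 were lower and 0 higher, and without WT 2, 4 were lower and 3 higher. Of 8 erythroid genes tested, 0 passed, with a median log2 fold change of -3.89, and without WT 2, 3 were lower and 1 higher. Here 2 of the 8 met the filter only through the WT-labelled libraries. The summed FPKM of the neutrophil genes was 33634, 95339 and 6820 in WT 1 to WT 3, against 93.5 to 289 in KO. For 9 erythroid genes it was 138, 68106 and 531 in WT, and 16.9 to 127 in KO. For the 10 T cell genes it was 928, 2069 and 1010 in WT, and 1068 to 1164 in KO. WT 2, the library highest in all 9 B lineage genes, was also the highest in the neutrophil, erythroid and T cell lists and the lowest WT-labelled library in the NK cell list. None of the neutrophil, erythroid or T cell genes was at 0 throughout a group, and the part of the cell makeup in the levels of the members was not tested.

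**Figure D5:**
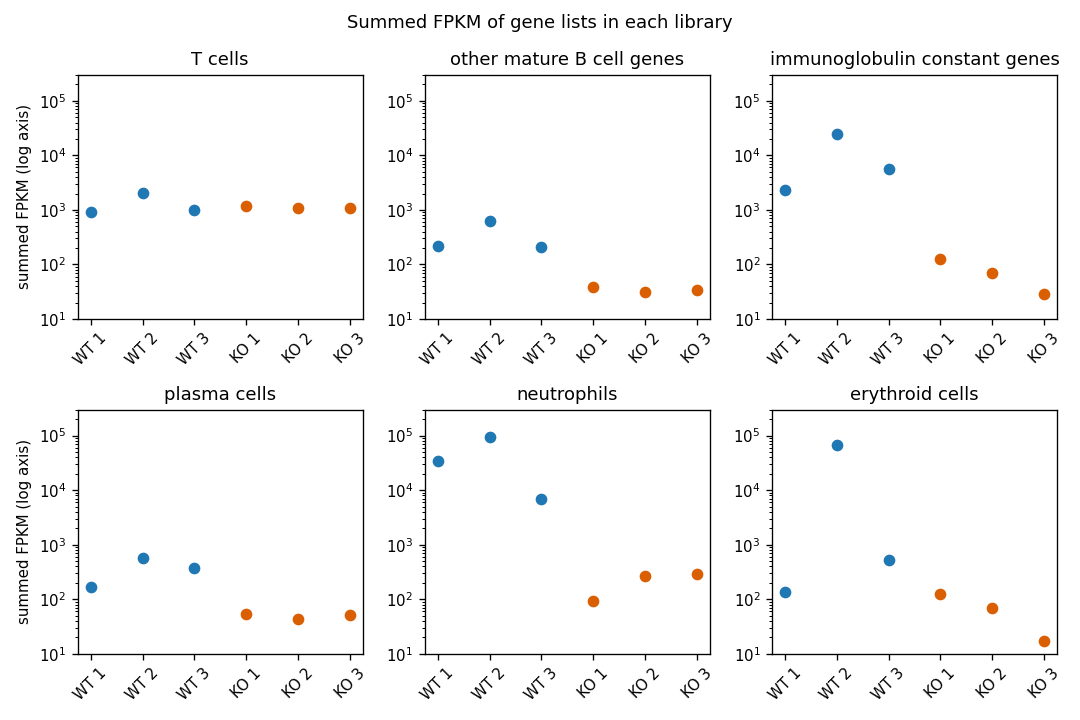
Summed FPKM (log axis) of 6 gene lists in each library, WT-labelled in blue and KO-labelled in orange. The T cell genes lie between 928 and 2069 in all libraries, and the other 5 lists are lower in every KO-labelled library than in WT 1, WT 2 and WT 3, with WT 2 highest in each.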

How the data were processed

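From Trizol RNA and NEBNext Ultra libraries, the authors deposited FPKM per gene and library in a single table. Per the labels, the submitters' processing notes name HISAT2 2.0.5, featureCounts 1.5.0-p3 and the builds GRCm38 and mm10; the use of strand is not given in the sources used here, so reads of the genes that overlap Vpreb1, Vpreb3, Pax5, Ebf1 and Ms4a1 may not be told apart from theirs. Gene coordinates were identical to the GRCm38 annotation (GENCODE M21) for 53548 of 54532 genes.

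In 100% of values, FPKM times gene length came in whole steps (tolerance 0.01), which gave the reads per gene. The authors' library size was 0.645 to 1.21 times the recovered total. A floor of 3 reads corresponded to 0.161 to 0.255 RPM, and intervals and floors cover counting error only.

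The 13393 genes that reached 1 FPKM in 3 or more of the 6 libraries were tested on log2(FPKM + 1), which understates changes of low genes, with limma 3.58.1 (lmFit, eBayes with trend, two-sided) in R 4.3.3, with Benjamini-Hochberg adjustment over all genes and a threshold of 0.05. The exact permutation test of 3 against 3 cannot go below 0.1. Read ratios were scaled to the authors' library sizes, with exact conditional 95% intervals. Named genes were the 9 members, up to 4 genes of each other list with the smallest p-values, and the immunoglobulin constant genes. The 10 protein-coding genes most like the members were also named. Vpreb2, Siglech, Cd300c, Top3b, Cd40 and Fcmr were named after their values were seen. For 1 gene that this rule names, no result is given. The members and lists were chosen with earlier results of these data known. Alternatives were other pseudocounts, filters, scalings, eBayes settings and library weights, removal of a trend with gene length, voom on the reads, protein-coding genes alone, a replicate block, and leaving out each library. Other software was data.table (version 1.17.8), Matplotlib 3.10.9, SciPy 1.17.1, pandas 2.3.3, NumPy 2.4.6 and Python 3.11.15.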

Additional observations from a re-analysis of the deposited data

How the results depend on the processing

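With all 6 libraries, 0 members passed in either direction. The number lower was 1 after quantile normalization, 2 after rescaling to TPM, 2 with array weights (1 higher), and 0 to 2 lower and 0 to 1 higher on leaving out each library in turn, where only leaving out WT 2 gave a call. The voom tests added after seeing the data gave 1 lower with all libraries, and 5 lower and 1 higher without WT 2, and limma without WT 2 and without a filter, also added after seeing the data, gave 5 lower and 0 higher. Cd79a and Cd79b kept their direction in all 22 alternatives. Cd79a was -3.57 after quantile normalization (adjusted p = 0.0465), -3.95 as TPM (0.0405), -1.94 with array weights (0.00157), -3.19 by voom without WT 2 (0.00247), and -5.08 to -2.23 on leaving out libraries. Cd79b was -4.74 as TPM (0.0492), -2.11 with array weights (0.00121), -3.97 by voom without WT 2 (0.000504), and -5.53 to -2.17 on leaving out libraries. Vpreb3 turned to 0.63 with array weights (0.211) and 1.53 by voom without WT 2 (0.0803), with -3.20 to 0.59 on leaving out libraries. Blnk turned to 0.27 as TPM (0.815), 0.70 with array weights (0.0297) and 1.503 by voom without WT 2 (0.0142), with -1.24 to 0.60 on leaving out libraries. Without WT 2 and without a filter, the 4 values were -2.23 (0.0110), -2.17 (0.00289), 0.59 (0.143) and 0.60 (0.0813). The upper end of each of these 4 ranges is the value without WT 2, whose array weight was 0.0509. Over all alternatives the adjusted p was 0.00157 to 0.214 for Cd79a, 0.000339 to 0.256 for Cd79b, 0.0803 to 0.699 for Vpreb3 and 0.0142 to 0.995 for Blnk. The precursor genes minus Ms4a1, KO minus WT, were -0.13 as reported, 2.08 and 0.34 with pseudocounts of 0.1 and 0.5, 0.89 as TPM, 0.078 after quantile normalization, 0.17 with the length trend removed, and -0.71 to 0.91 on leaving out libraries. The cause of these changes was not tested beyond the construction of each alternative.

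Over all genes, 1754 were called higher and 1785 lower; without WT 2 these were 3584 and 3383, with array weights 4388 and 4073, and without KO 2, 938 and 996. Rescaling to TPM moved the median of all genes from 0.086 to 0.86 and voom to 0.56, and TPM gave 2279 higher and 1081 lower. Same-numbered libraries deviated together with r of 0.0954, 0.105 and -0.153, so the numbers do not pair them. With the replicate block, 0 members passed (adjusted p = 0.0668 for Cd79a, 0.0911 for Cd79b, 0.449 for Vpreb3 and 0.621 for Blnk), and 1207 genes were called higher and 1469 lower; not every library correlated best with its own number. Blnk has no value with a filter of a mean FPKM of at least 5, and with no filter all 9 members were tested and 0 passed. Depth limits Vpreb1, Igll1, Pax5, Ebf1 and Ms4a1, with 0 to 5 reads in each KO-labelled library.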

Other observations

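The genes whose profile over the 6 libraries was most like the mean profile of the 9 members were no B cell genes. Of 10384 protein-coding genes compared, the 10 with the highest Pearson correlation were Supt4a (0.999), Cep85, Dohh, Timm17b, Rpp21, Prorsd1, Spg7, Wbp1, Pfdn5 and Rpl36 (0.997). Supt4a, which encodes an elongation factor of transcription, reached 67.1, 357 and 66.0 FPKM in WT 1 to WT 3, against 60.4, 59.4 and 62.3 in KO 1 to KO 3. Rpl36, a ribosomal protein gene, had 1063, 16503 and 1436 in WT, and 1073 to 1124 in KO. Each of the 10 was highest in WT 2, and 640 genes had a correlation over 0.95. The correlations are a description over 6 points, of which WT 2 is the highest for every gene named here.

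Without WT 2, 5 of the 6 plasmacytoid dendritic cell genes tested were higher in KO and 0 lower (limma), against 1 and 0 with all libraries. Of all genes tested, 26.8% were higher without WT 2 and 13.1% with all libraries. The filter was met only through the KO-labelled libraries by 1 of the 6. Of the 10 genes in the list, Siglech and Cd300c had 0 reads in each KO-labelled library. Ly6d, which lymphoid precursors carry at their surface, reached 5.57, 428 and 5.03 FPKM in WT 1 to WT 3, against 418, 507 and 568 in KO 1 to KO 3. The log2 fold change was 4.27 ± 1.61 (SE, limma, adjusted p = 0.104), and 6.30 ± 0.17 without WT 2 (SE, limma, adjusted p = 2.81e-05). Bst2, an antiviral surface protein, had 41.4, 269 and 43.2 in WT, and 88.0, 124 and 181 in KO.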
